A study of Mus musculus with 8 samples.

Results

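The MYC and MAX network is a group of transcription factors that pair through a shared helix-loop-helix and leucine zipper domain. The 10 genes described here are Myc, Mycn, Mycl, Max, Mxd1, Mxd3, Mxd4, Mxi1, Mnt and Mlx. They were chosen by name, and every probe set of the array whose platform annotation gives 1 of these symbols was taken, which gave 24 of 45037 non-control probe sets. Of the 10 genes, 9 had a brightest probe set above the filter on dim values and were tested among 11404 genes, and Mycl did not.

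Spleen cells of leukemic mice were profiled on Affymetrix mouse arrays, with 4 arrays from 2 animals in each genotype, 1 array of animal 1 and 3 arrays of animal 2. The full-length animals carried CBFb-SMMHC, a leukemia fusion of the core-binding factor subunit CBFb with a smooth muscle myosin tail, and were taken 2 months after the mutagen ENU. The truncated animals were chimeras with CBFb-SMMHCd179-221, taken 3 weeks after birth, and their labels mention no ENU. Genotype, mutagen and age therefore cannot be told apart. The series text calls the full-length animals knock-in mice and the sample labels call them chimeras, and how many of the spleen cells were host cells is not known here. The comparison asks how leukemic cells with the truncated fusion, which binds RUNX1 less tightly, differ from those with the full-length fusion.

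Array 1 of animal 2 resembled the array of animal 1 more than the other arrays of its own labelled animal. Across the 11404 genes its correlation with animal 1 was 0.983 in the full-length and 0.980 in the truncated group. With arrays 2 and 3 of animal 2 it was 0.870 in the full-length and 0.944 in the truncated group, while arrays 2 and 3 correlated with each other at 0.997 in both groups. Genes are not independent replicates, so these are descriptions. Whether animal 2's arrays came from separate RNA preparations is not given in the labels. The results below are given over the labelled animals, and those of the network genes and the list medians also within the arrays numbered 1 (1 per animal) and within arrays 2 and 3 of animal 2, which hold 1 labelled animal per genotype and allow no test. Marker levels parted the same arrays: the median of 12 erythroid genes was 11.03 and 10.96 in the full-length arrays numbered 1, 8.22 and 8.21 in full-length arrays 2 and 3, 9.75 and 9.57 in truncated arrays numbered 1, and 8.36 and 8.35 in truncated arrays 2 and 3.

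As background, the MYC proteins bind DNA only as dimers with MAX and activate genes of growth and metabolism. MXD1, MXI1, MXD3, MXD4 and MNT compete for MAX and recruit SIN3 repressor complexes to the same sites. MLX is a related partner that pairs with some of these repressors and with the glucose-sensing factors MLXIP and MLXIPL. In blood formation MYC is high in dividing progenitors, and MXD1 appears as myeloid cells mature.

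The dimers bind the E-box CACGTG, a palindrome that reads the same on both strands. RefSeq promoter windows of GRCm38.p6, 250 bases before to 50 bases after a gene's start, were found for 9 of the 10 members, all but Myc, and 4 of these 9 genes held the motif. Their sites are shown because they place the network's own binding letters beside members whose values follow. Each site is written 5′ to 3′ on the gene's strand, with the E-box in capitals.
Max (chr12:76962237-76962260, minus strand): gagcccggtCACGTGttagggggc
Mlx (chr11:101087241-101087264, plus strand): gggttggatCACGTGactgagcct
Mnt (chr11:74830792-74830815, plus strand): cacccaagcCACGTGtgcgcgcgc
Mxd4 (chr5:34187915-34187938, minus strand): ctgggccacCACGTGctgttgcta
The motif began 3 bases before the gene's start in Max, 40 in Mlx, 123 in Mnt and 219 in Mxd4. It was in 8.09% of the 27025 genes with a promoter in the table and in 11.8% of the 9264 such genes tested on the arrays. No binding was measured, and these are matches of letters.

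Myc was lower in the truncated than in the full-length arrays, Mlx was higher, and the other 7 tested members overlapped between the genotypes by their brightest probe set. No member passed an adjusted p of 0.05 over all genes (limma, Benjamini-Hochberg adjustment), where 0% of the 11404 genes passed. Of the 9 tested members 1, Myc, had an unadjusted p under 0.05, against 14.1% of all genes. For 2 of the 9, array values stood apart between genotypes, against 19.0% of all genes. Myc was 1 of the 605 genes with an unadjusted p under 0.05 and a lower truncated value, 5.31%, as opposed to 8.80% with a higher one. Arrays stood apart with lower truncated values in 8.74% of genes and with higher ones in 10.3%. Of the 9 tested members 5 had a higher and 4 a lower value in truncated animals, beside 48.5% of all genes with a higher value, and their median difference was 0.07 on the log2 scale (truncated minus full-length), beside -0.01 over all genes tested. As a group the members were thus not set apart from other genes on these arrays.

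**Figure D1:**
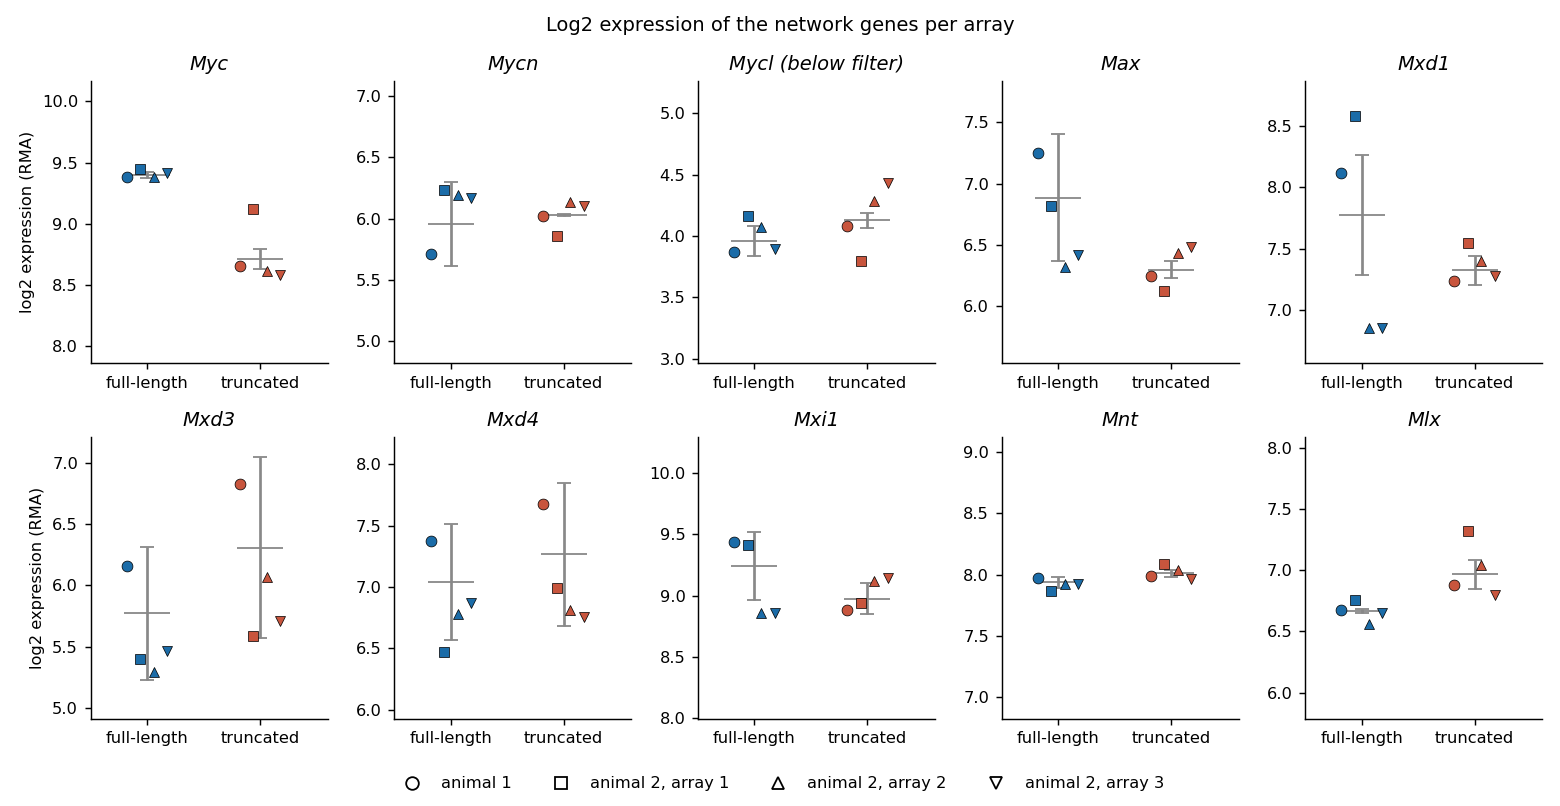
Log2 expression (RMA) of the brightest probe set of each network gene in the full-length and truncated groups. Each symbol is 1 array, grey bars give the mean and SD of the 2 animals, and all panels span the same log2 range. The 4 truncated arrays of Myc sit between 8.58 and 9.12, below the 4 full-length arrays, and those of Mlx sit above.

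Myc, the family member that drives growth in most dividing cells, is measured by 1 probe set. Full-length animal 1 gave 9.38, and the arrays of full-length animal 2, in their numbered order, gave 9.45, 9.39 and 9.41. Truncated animal 1 gave 8.66, and those of truncated animal 2 gave 9.12, 8.61 and 8.58. The full-length arrays lay close together, and every truncated array lay below them, with array 1 of truncated animal 2 the closest.

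Averaged by animal, Myc averaged 9.40 ± 0.02 in full-length and 8.71 ± 0.08 in truncated mice (log2, SD, n = 2 animals each), a 1.61-fold lower level. The difference was -0.69 with a standard error of 0.21 and a 95% interval of -1.23 to -0.14 (limma, unadjusted p = 0.0222, adjusted p = 0.258). It was -0.53 within the arrays numbered 1 and -0.80 within arrays 2 and 3. As the genotypes did not overlap, its sign could not differ between these sets. With the animal and array number as a replicate block over the 8 arrays, which treats arrays of 1 animal as independent, the difference of -0.66 passed (limma, adjusted p = 0.0406), along with 8.29% of all genes. With the animal as a random block it did not (limma, adjusted p = 0.112), where 3.03% of genes did. Without arrays 2 and 3 of truncated animal 2 it was -0.51 (limma, adjusted p = 0.387), with 3.93% of genes passing.

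In spleen tissue measured in bulk, fewer cells of a type and less RNA per cell cannot be told apart. Marker lists of several cell types differed in value between the same arrays. All 10 tested genes of secondary and tertiary granules, which mark maturing neutrophils, were higher in value in truncated mice without overlap of arrays. Of all genes 10.3% stood apart in that direction. The median difference of the list was 2.80, with list medians of 6.91 to 10.04 in full-length and 11.55 to 11.78 in truncated arrays. All 11 tested monocyte and macrophage genes had a higher value in truncated animals, beside 48.5% of all genes. The list median per array was 6.21 to 7.10 in full-length and 8.24 to 8.46 in truncated arrays. Of 7 B cell genes on the array 4 were tested, and all 4 were higher in value as well, with list medians of 4.64 to 5.04 and 5.64 to 6.23. The full-length medians lay near the filter's median of 4.75, and a gene could pass the filter through the truncated animals alone. The count of B cell genes therefore carries no weight by itself. The median of 15 S phase and mitosis genes, by contrast, overlapped, at 9.35 to 9.82 in full-length and 9.69 to 10.02 in truncated arrays. Over animals their median difference was 0.01, with 9 genes higher and 6 lower. Within the arrays numbered 1, 8 of the 15 were lower, and within arrays 2 and 3, 2 were. Whether Myc bore on these genes was not tested. The part of cell makeup in the Myc difference was not tested.

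Mycn, the family member best known from the nervous system and also present in blood stem cells, showed no stable direction. By its brightest probe set (1425923_at) it was at 5.71 in full-length animal 1, and in the arrays of full-length animal 2, listed by number, it was at 6.23, 6.19 and 6.16. In truncated arrays it was at 6.02 in animal 1 and at 5.86, 6.13 and 6.11. The truncated arrays thus lay inside the full-length range. The difference was 0.07 with a 95% interval of -0.58 to 0.73 (limma, adjusted p = 0.941). It was -0.03 within the arrays numbered 1, -0.06 within arrays 2 and 3, and -0.17 without full-length animal 1.

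The other Mycn probe sets were dimmer. Probe set 1417155_at lay between 3.13 and 3.46 in full-length arrays. In truncated arrays animal 1 gave 4.02 and the numbered arrays of animal 2 gave 4.09, 3.52 and 3.23, so array 3 alone lay inside the full-length range. Probe set 1425922_a_at differed by 0.15. Mycl, the third family member, was dim by all 3 of its probe sets, whose array values ran from 2.93 to 4.43, below the median of 4.75 over all probe sets. It was not tested, and RMA values this low do not show absence. Its brightest probe set was at 3.96 ± 0.12 in full-length mice and 4.13 ± 0.06 in truncated mice (SD, n = 2), with differences of -0.08 within the arrays numbered 1 and 0.37 within arrays 2 and 3.

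Max, the obligate partner of the MYC proteins, was high in the full-length arrays numbered 1 and alike elsewhere. Its single probe set was at 7.25 in full-length animal 1, and in the arrays of full-length animal 2, listed by number, it was at 6.82, 6.32 and 6.41. The truncated arrays were at 6.25 in animal 1 and at 6.12, 6.43 and 6.48 in animal 2. Full-length arrays 2 and 3 therefore lay inside the truncated range, and only the other full-length arrays stood above it.

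Over animals Max averaged 6.88 ± 0.52 in full-length and 6.30 ± 0.07 in truncated mice, a difference of -0.59 with a 95% interval of -1.37 to 0.20 (limma, adjusted p = 0.502). Within the arrays numbered 1 the difference was -0.85 and passed (limma, adjusted p = 0.00605), but 26.4% of all genes passed in that setting. Within arrays 2 and 3 it was 0.09.

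Mxd1, a MAX-binding repressor that accompanies maturation, followed the same arrays with a wider spread. Its brightest probe set (1434830_at) was at 8.12 in full-length animal 1, and in the arrays of full-length animal 2, listed by number, it was at 8.58, 6.85 and 6.85. In truncated arrays it was at 7.24 in animal 1 and at 7.55, 7.40 and 7.27 in animal 2. The truncated arrays lay between the high and the low full-length arrays, without overlap with either pair. The difference over animals was -0.45 with a 95% interval of -1.22 to 0.32 (limma, adjusted p = 0.615). It was -0.96 within the arrays numbered 1 (limma, adjusted p = 0.00277), where 26.4% of all genes passed, and turned to 0.48 within arrays 2 and 3.

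The other Mxd1 probe sets gave the same sign in both sets of arrays. Probe set 1455104_at differed by -1.18 within the arrays numbered 1 and by -0.17 within arrays 2 and 3, and 1422002_at by -0.59 and -0.38. In full-length mice the arrays numbered 1 exceeded arrays 2 and 3 by 1.498, 1.87 and 1.11 in 1434830_at, 1455104_at and 1422002_at. In truncated mice this gap was 0.06, 0.87 and 0.90. Full-length arrays thus differed more in Mxd1 than the genotypes did over animals.

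Mxi1, a close relative of Mxd1, showed the same arrangement at a smaller size. Its brightest probe set (1450376_at) was at 9.44 in full-length animal 1, and in the arrays of full-length animal 2, listed by number, it was at 9.42, 8.85 and 8.86. The truncated arrays were at 8.88 in animal 1 and at 8.94, 9.12 and 9.14 in animal 2, again between the high and low full-length arrays. The difference was -0.26 with a 95% interval of -0.90 to 0.37 (limma, adjusted p = 0.743), and it was -0.51 within the arrays numbered 1 and 0.27 within arrays 2 and 3. A second probe set, 1425732_a_at, kept 1 sign, with -0.65 and -0.24.

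The full-length arrays high in Max, Mxd1 and Mxi1 were those high in erythroid genes, as the plot of these genes beside the erythroid list shows. In truncated mice the arrays numbered 1 also had the higher erythroid medians, 9.75 and 9.57 against 8.36 and 8.35. There the gap of arrays numbered 1 over arrays 2 and 3 was -0.27 for Max, -0.22 for Mxi1 and 0.06 for Mxd1 by brightest probe set. It was 0.30 in the other Mxi1 probe set and 0.87 and 0.905 in the other Mxd1 probe sets. Of 12 tested erythroid genes 11 were lower in value in truncated mice, beside 51.5% of all genes. The same full-length arrays had the lowest medians of the primary granule list, 5.12 and 4.77 against 9.40 and 9.49 in full-length arrays 2 and 3 and 9.30 to 11.4 in truncated arrays. Other lists parted the full-length arrays in the same way. The secondary and tertiary granule list was at 6.99 and 6.91 against 10.03 and 10.04, and the mast cell and basophil list at 7.11 and 6.90 against 10.80 and 10.88. The erythroid list was therefore not alone in this. Without those full-length arrays, which leaves 1 labelled animal in that group, the difference was -0.07 for Max, 0.47 for Mxd1 and 0.12 for Mxi1, while Myc stayed at -0.68. The arrays left out were the highest in Max, Mxd1 and Mxi1, so the differences of these genes had to move upward. The part of erythroid or other cells in these values was not tested.

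**Figure D2:**
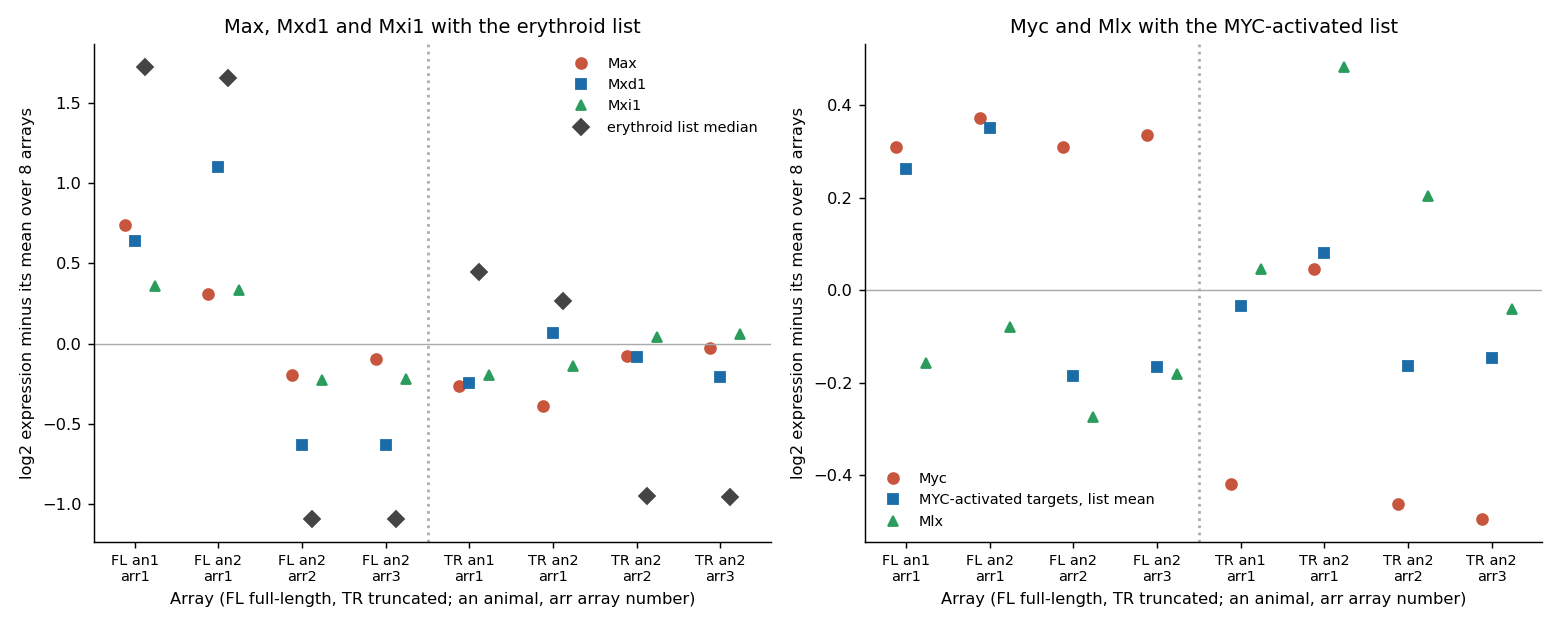
Log2 expression per array minus the mean of that gene or list over the 8 arrays, for Max, Mxd1, Mxi1 and the erythroid list median (left) and for Myc, Mlx and the mean of the MYC-activated list (right). The high points at left belong to both full-length arrays numbered 1, and at right Myc stays high in all 4 full-length arrays while the target list is high in those numbered 1.

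Mxd3, the MXD gene linked to S phase, was higher in truncated arrays by the probe set with the tightest values, 1448878_at. It was at 5.29 in full-length animal 1 and at 5.37, 5.40 and 5.30 in animal 2, and at 6.03 in truncated animal 1 and at 5.95, 5.92 and 6.03 in animal 2. The groups did not overlap, and the difference of 0.68 was 0.66 within the arrays numbered 1 and 0.63 within arrays 2 and 3. In a fit over 19899 probe sets it had an unadjusted p of 0.0265, as 13.8% of the probe sets did under 0.05, and did not pass (limma, adjusted p = 0.289). This probe set was singled out after its values were seen.

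The brightest Mxd3 probe set (1438847_at) was at 5.77 ± 0.54 in full-length mice and 6.31 ± 0.74 in truncated mice. Its difference of 0.54 had a 95% interval of -0.61 to 1.68 (limma, adjusted p = 0.704), with 0.43 within the arrays numbered 1 and 0.51 within arrays 2 and 3, and the array of animal 1 was the highest of its group in both genotypes, at 6.15 and 6.83. Without truncated animal 1 the difference was 0.01, and without truncated animal 2 it was 1.06. It was 0.15 without full-length animal 2 and 0.92 without full-length animal 1. The third, 1422970_at, differed by 0.29. All 3 probe sets had a higher value in truncated mice within either set of arrays.

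Mxd4, a repressor of quiescent and differentiated cells, also had its highest values in animal 1 of both genotypes, at 7.37 in full-length and 7.68 in truncated mice by its brightest probe set (1434378_a_at). In animal 2 it ran from 6.47 to 6.87 in full-length and from 6.76 to 6.99 in truncated arrays. The difference of 0.23 had a 95% interval of -0.76 to 1.21 (limma, adjusted p = 0.877), and it was 0.41 within the arrays numbered 1 and -0.04 within arrays 2 and 3. Its 4 probe sets did not give 1 direction, with differences of 0.24, 0.32, 0.23 and -0.06 in 1422574_at, 1422575_at, 1434378_a_at and 1434379_at. Without truncated animal 1 the difference by the brightest was -0.19, without full-length animal 2 it was -0.11, without full-length animal 1 it was 0.56 and without truncated animal 2 it was 0.64.

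Mnt, the most widely expressed MAX-binding repressor, varied least. All 8 arrays of its brightest probe set lay between 7.86 and 8.09, with 7.94 ± 0.05 in full-length and 8.01 ± 0.03 in truncated animals. The difference of 0.07 had a 95% interval of -0.47 to 0.61 (limma, adjusted p = 0.931), with 0.12 within the arrays numbered 1 and 0.07 within arrays 2 and 3, which leaves room for changes of up to that size. A dim second probe set, 1418193_at, ran from 3.81 to 4.79 and was below the filter.

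Mlx, the MAX-like partner, was higher in every truncated array than in any full-length array by both of its probe sets. By the brightest (1418437_a_at) it was at 6.68 in full-length animal 1 and at 6.76, 6.56 and 6.65 in animal 2, and at 6.88 in truncated animal 1 and at 7.32, 7.04 and 6.79 in animal 2. The nearest arrays of the groups were 6.76 and 6.79, so the gap was narrow. Over animals the values were 6.67 ± 0.01 and 6.97 ± 0.12, a difference of 0.30 with a 95% interval of -0.25 to 0.85 (limma, adjusted p = 0.644).

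By the other Mlx probe set (1425930_a_at) the full-length arrays ran from 5.97 to 6.21 and the truncated arrays from 6.21 to 6.74, a difference of 0.51 (limma, fit over probe sets, adjusted p = 0.442). Within the arrays numbered 1 the Mlx difference was 0.38 and 0.57 in 1418437_a_at and 1425930_a_at, and within arrays 2 and 3 it was 0.31 and 0.32. Both probe sets can match more than 1 Mlx transcript, as the ending of their names shows.

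**Figure D3:**
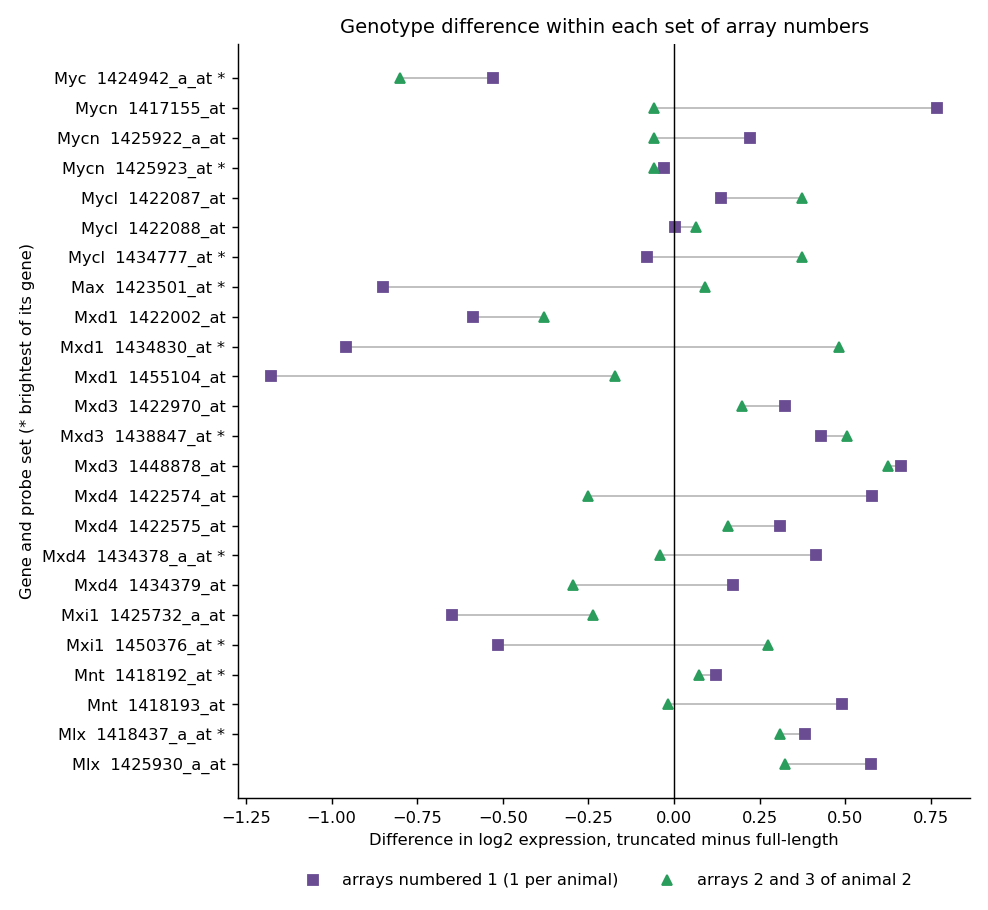
Difference in log2 expression, truncated minus full-length, of each of the 24 probe sets, within the arrays numbered 1 (squares) and within arrays 2 and 3 of animal 2 (triangles). The sign is shared for 14 of 24 probe sets, among them the 1 of Myc, the 3 of Mxd3 and both of Mlx, while Max and the brightest of Mxd1 and Mxi1 cross 0.

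Of the 9 tested members 5 had 1 sign in both sets of arrays by the brightest probe set, which is a share of the same order as the 57.5% of all genes tested. Myc, Mxd3 and Mlx kept it at sizes of 0.3 log2 units or more. For Myc and Mlx, whose arrays did not overlap between the genotypes, no other outcome was possible. Mycn and Mnt kept it at values near 0.

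Genes that act with or on the network were read from lists, with the direction of MYC target genes already known from an earlier account of these data. Of 18 tested genes of the extended network and its co-factors 16 had a lower value in truncated animals, and their median difference was -0.09, with 51.5% of all genes lower. Within the arrays numbered 1 the split was near even, with 10 of 18 lower and a median of -0.01, and within arrays 2 and 3 it was 17 of 18 with -0.32. The co-repressor Sin3b, which MXD and MNT proteins recruit, was at 9.81 ± 0.10 and 9.35 ± 0.16 (limma, adjusted p = 0.462), with no overlap of arrays. With the replicate block its difference was -0.48 (limma, adjusted p = 0.0409), in the setting where 8.29% of all genes passed. That fit treats arrays of 1 animal as independent. With the animal as a random block its adjusted p was 0.118 in limma. Actl6a, a chromatin remodelling subunit, differed by -0.32 and Usf2, another E-box factor, by -0.29. The members with higher values were Ccnt1 (0.23), a subunit of an elongation kinase, and the helicase Ruvbl1 (0.05). No gene of this list had an unadjusted p under 0.05, against 14.1% of all genes.

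Regulators of MYC protein had lower values in 16 of 26 tested genes, with a median difference of -0.20, and 0 passed over all genes. The median was -0.05 within the arrays numbered 1 and -0.11 within arrays 2 and 3. Fbxw7, the ubiquitin ligase subunit that marks MYC for breakdown, was at 7.86 ± 0.38 in full-length mice and 6.88 ± 0.09 in truncated mice, a difference of -0.98 (limma, unadjusted p = 0.0142, adjusted p = 0.217). Its arrays did not overlap, with 7.54 in both full-length arrays 2 and 3. Pim1, a kinase that stabilises MYC, was at 10.37 ± 0.19 and 9.66 ± 0.11, a difference of -0.71 (limma, adjusted p = 0.276), again without overlap. Both passed with the replicate block, Fbxw7 at -0.81 (limma, adjusted p = 0.0467) and Pim1 at -0.68 (limma, adjusted p = 0.0259), as did 8.29% of all genes. Arrays of 1 animal again counted as independent there. With the animal as a random block Fbxw7 passed (limma, adjusted p = 0.0400), as did 3.03% of all genes, and Pim1 did not (limma, adjusted p = 0.0806). The deubiquitinase Usp36 differed by -0.81. The higher values were those of Pim3 (0.32), the mRNA-binding protein gene Igf2bp1 (0.24) and the kinase gene Aurka (0.26), and neither direction passed.

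MYC-activated targets had lower values in 36 of 47 tested genes, beside 51.5% of all genes, with a median difference of -0.28. Only 1 lower and 2 higher genes had an unadjusted p under 0.05 in limma, against 14.1% of all genes. Arrays stood apart in 6 lower and 2 higher genes, against 19.0% of all genes. The ornithine decarboxylase gene Odc1, which starts polyamine synthesis, was at 11.13 ± 0.02 in full-length mice and 10.47 ± 0.16 in truncated mice, a difference of -0.66 (limma, unadjusted p = 0.0284, adjusted p = 0.281), and its arrays did not overlap. Odc1 passed with the replicate block (-0.62, limma, adjusted p = 0.0308), which takes arrays of 1 animal as independent, as did 8.29% of all genes. With the animal as a random block it did not (limma, adjusted p = 0.0909). The lactate transporter Slc16a1 differed by -0.98, but by -0.11 without the full-length arrays numbered 1, by -0.45 without full-length animal 1 and by -1.52 without full-length animal 2. The nucleolar GTPase gene Gnl3 differed by -0.54. The nucleotide metabolism genes Nme2 (0.94, adjusted p = 0.193 in limma) and Dnph1 (0.89) were higher in value, as was the DNA repair gene Apex1 (0.33). The E-box was in the promoter of 15 of 46 genes of this list, 32.6%.

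Gene by gene, the lower target values lay mainly in the arrays numbered 1. There 37 of the 47 genes were lower, with a median difference of -0.37, beside 49.7% of all genes. Within arrays 2 and 3, 21 of 47 were lower with a median difference of 0.03, beside 52.7% of all genes. Over animals but without the full-length arrays numbered 1, the median difference was 0.07. The mean of the list was 9.91 in full-length animal 1 and above that in array 1 of animal 2, 9.46 and 9.48 in full-length arrays 2 and 3, 9.62 and 9.73 in truncated arrays numbered 1, and 9.48 and 9.50 in truncated arrays 2 and 3. By the list median per array, truncated arrays 2 and 3 were lower as well, at 9.50 and 9.57. Full-length arrays 2 and 3 were at 9.80 and 9.85, so the summary used changes the reading there. Myc itself was lower by 0.80 log2 units in those same arrays 2 and 3. Odc1 was among the genes that were lower in both, by 0.61 and 0.63, and Gnl3 was lower by 0.37 and 0.88.

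MYC-repressed targets were split, with 6 of 15 tested genes higher and 9 lower and a median difference of -0.23. The median was -0.52 within the arrays numbered 1 and turned to 0.28 within arrays 2 and 3, and it was 0.09 with the replicate block, so the list had no stable direction. The stress-induced gene Gadd45b had the largest higher value, 6.53 ± 0.39 against 8.61 ± 0.36 (limma, adjusted p = 0.0828), and 1.90% of all genes had an adjusted p under 0.10, 1.70% with a higher and 0.202% with a lower truncated value. With the replicate block Gadd45b (2.07, adjusted p = 0.00666), Btg1 (1.38, adjusted p = 0.0265) and Ndrg2 (-1.47, adjusted p = 0.0467) passed in limma, in the setting where 8.29% of all genes did. This block, too, counted arrays of 1 animal as independent. With the animal as a random block none of these passed, at adjusted p of 0.0705, 0.220 and 0.424 in limma. The anti-proliferative gene Btg1 differed by 1.17 and the matrix protein gene Thbs1 by 0.66. The cell cycle inhibitor gene Cdkn2b was at 6.11 ± 1.78 and 3.49 ± 0.14, with 3.67 and 3.84 in full-length arrays 2 and 3, so the full-length arrays numbered 1 set its difference of -2.61. All its truncated arrays lay below the filter's median of 4.75. It therefore passed the filter, and entered the count of lower genes, only through the full-length animals. Ndrg2 differed by -1.28, and by -2.74 without the full-length arrays numbered 1, -2.06 without full-length animal 1 and -0.50 without full-length animal 2. Btg2 differed by -0.85, and by -0.17, -0.35 and -1.36 in the same order.

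Targets of MLX with MLXIP or MLXIPL were mixed in the same way, with 2 of 7 tested genes higher and 5 lower, and a median difference of -0.13, which was -0.16 within the arrays numbered 1 and -0.03 within arrays 2 and 3. The arrestin-like gene Arrdc4 was at 5.20 ± 0.69 and 6.11 ± 0.27 (difference 0.91), and the redox regulator Txnip at 10.43 ± 0.42 and 10.57 ± 0.34. The lipid and glycolysis genes Scd1 (-1.95) and Pklr (-1.34), and Tkfc (-0.26), were lower in value. Whether the Mlx value bore on these targets was not tested. Pklr, a red cell pyruvate kinase, is also an erythroid gene.

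**Figure D4:**
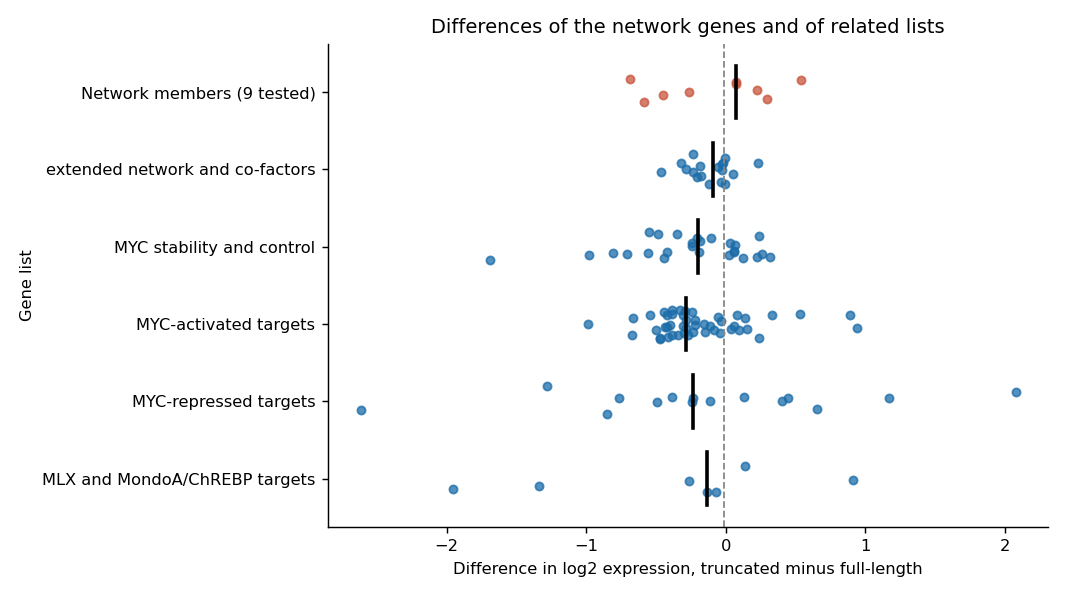
Difference in log2 expression, truncated minus full-length, of the 9 tested network genes and of the tested genes of each related list. Each point is 1 gene, black bars are list medians and the dashed line is the median over all 11404 genes, at -0.01. The MYC-activated list lies mostly left of the line, with a median of -0.28, and the network genes lie on both sides.

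Over all tested genes with a promoter window, the 1097 with an E-box had a median difference of -0.03 and 52.7% of them had a lower value, and the 8167 without it had -0.01 and 51.5%. Holding the network's binding letters therefore went with little difference between the genotypes.

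The genes whose values over the 8 arrays were most like those of Myc were Khdc4 (Pearson r = 0.995), Rad1 (0.990), Slc6a6 (0.989), C1galt1 (0.985) and Gmps (0.984). For Mxd1 they were Slc25a37 (0.984), the mitochondrial iron importer of red cell precursors, Pabpc1 (0.984), Ostc (0.984), Sertad3 (0.982) and Eny2 (0.981). For Mycn they were Slc30a3 (0.955), Hkdc1 (0.943), Vmn2r26 (0.935), Adam21 (0.933) and Tmem89 (0.931), and Adam21 and Vmn2r26 each spanned under 0.4 log2 units over the arrays. The 8 arrays come from 4 animals and the genes were picked as the highest of all tested, so these values are descriptions.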

How the data were processed

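The deposited table gives 1 column of log2 values per array, made by the authors with RMA per the submitters' processing notes, no version being named. That the base is 2 was inferred here from the values, which lie on the usual RMA scale. RMA draws dim values together, which understates their differences, and no detection calls were used. Array medians lay between 4.71 and 4.78, and precision in the main fit is set by the number of animals, 2 per genotype.

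Symbols came from the platform annotation (34945 with 1 symbol, 932 with several, 9160 with none). Arrays were averaged per animal, each gene was represented by its brightest probe set, and genes needed at least 2 of 4 animals above the median over non-control probe sets. The genotypes were compared in limma 3.58.1 under R 4.3.3 by lmFit and eBayes (2 residual and 3.24 prior degrees of freedom) with Benjamini-Hochberg adjustment over 11404 genes. The fit was tested on simulated data.

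Groups share animal and array numbers in the labels. Deviations from the group means of same-numbered arrays correlated at 0.301, 0.143, 0.229 and 0.213, all above 0.1, so a replicate block was fitted as an alternative. The numbers name different mice, and the same-numbered array was not always the best partner. This block also counts the 3 arrays of animal 2 as independent, so its passing calls overstate the replication. Full-length animal 2 array 1 was most like truncated animal 1 array 1, and its array 3 most like truncated animal 2 array 2. Other alternatives changed the arrays used, the filter, the probe sets, the prior and the normalization. The 10 genes and the lists were chosen with earlier results of these data known. List genes were named by the smallest unadjusted p, up to 3 per direction.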

Additional observations from a re-analysis of the deposited data

Results flagged for a closer look

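Dixon's criterion at the 95% level was applied to 48 groups of 4 arrays, 1 per probe set and genotype. By it 4 values lay apart from the rest of their group. For independent values chance gives about 1 in 20, but each group holds 3 arrays of 1 animal, so that rate does not hold here. Myc in array 1 of truncated animal 2, at 9.12, was set apart above the other truncated arrays, which reached 8.66. For Mycn, full-length animal 1 was set apart below its group in 1417155_at (3.13) and in 1425923_at (5.71), and truncated animal 1 above its group in 1425922_a_at (5.35).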

How the results depend on the processing

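No gene passed over all genes with the animal as the unit (limma, 0 at an adjusted p under 0.05 and 1608 at an unadjusted p under 0.05). The count was 345 with the animal as a random block, 945 with the replicate block, 3010 with 1 array per animal, 1 with all 4 animals above the median, 3 with a robust prior that follows intensity, and 448 without arrays 2 and 3 of truncated animal 2, a setting added after the data were seen. Leaving out 1 animal or 1 array of animal 2 in turn gave 0 to 655, the highest without full-length animal 2. It was 329 and 423 without its array 2 or 3. In 23 alternatives Myc stayed lower in value in truncated mice and Mxd3, Mnt and Mlx higher, while 16 of 230 values of the network genes took the other sign, in Mycn, Mycl, Max, Mxd1, Mxd4 and Mxi1. The arrays of Myc and of Mlx did not overlap between the genotypes, so no choice of arrays could turn their sign. Settings that changed only the filter or the prior left every difference as it was. The kept signs of Myc and Mlx are therefore no added support. Myc was at -0.66 and passed with the replicate block, which changed the call of no other network gene, and it was at -0.80 in arrays 2 and 3 of animal 2. In those arrays the values were 0.091 for Max, 0.48 for Mxd1, 0.27 for Mxi1, -0.040 for Mxd4, -0.059 for Mycn and 0.37 for Mycl. With 1 array per animal Max (-0.85) and Mxd1 (-0.96) passed, Mycn was at -0.029 and Mycl at -0.080. Without the full-length array of animal 1 and array 1 of animal 2, Mxd1 was at 0.47, Mxi1 at 0.12 and Mycn at -0.15. Mycn was at -0.044 with the replicate block. Without arrays 2 and 3 of truncated animal 2 it was at -0.012 and Mycl at -0.020. Leaving out 1 animal or 1 array in turn moved Mycn between -0.17 (without full-length animal 1) and 0.32, and Mxd4 between -0.19 (without truncated animal 1) and 0.64.

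In arrays 2 and 3 of animal 2 the values were -0.36 for Ccnt1, -0.13 for Ruvbl1, -0.21 for Thbs1, -0.29 for Arrdc4, -0.039 for Txnip, 0.62 for Scd1 and 0.16 for Tkfc. Without the full-length array of animal 1 and array 1 of animal 2 they were -0.55 for Txnip, -0.85 for Usf2, 0.00074 for Pklr and 0.35 for Scd1. In that setting the sizes of others also moved by over 1.5 times, to 0.012 for Arrdc4, -0.26 for Cdkn2b, -1.40 for Usp36, -0.45 for Pim1, 0.50 for Nme2 and Dnph1, 0.62 for Apex1, 1.35 for Gadd45b and 0.76 for Btg1. With the replicate block Ccnt1 was at -0.029 and Ruvbl1 at -0.072, and Ruvbl1 was at -0.021 with the random block and -0.012 with 1 array per animal. With the mean of all probe sets Usf2 was at 0.013, Igf2bp1 at -0.036 and Txnip at -0.091, and Txnip was at -0.13 without arrays 2 and 3 of truncated animal 2. Leaving out 1 animal or 1 array in turn moved Ccnt1 from -0.26 to 0.71, Ruvbl1 from -0.10 to 0.21, Usf2 from -0.62 to 0.049, Aurka from -0.058 to 0.57, Txnip from -0.16 to 0.44 and Tkfc from -0.63 to 0.11. Where an alternative changed a value, the cause was not tested. With 2 animals per genotype, the 95% intervals of the tested members span about 1 log2 unit or more.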
